A study of Mus musculus with 8 samples.

Results

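The transcription factors and hormone receptors that mark a Sertoli cell were followed in TTE3, a mouse testicular Sertoli cell line, over a day at 39 °C. The set was 9 genes: Sox9, Wt1, Gata4, Gata6, Gata1, Nr5a1, Dmrt1, Nr0b1 and Fshr. Every probe set whose platform annotation gave 1 of these symbols was taken, which made 13 probe sets of 22626 on the array and 9 genes of 12393 with a probe set of their own. A probe set is a group of short probes read together as 1 signal, and no probe set naming several genes held a member.

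TTE3 is 1 cell line, and the transgenic mice it came from carry the simian virus 40 large T-antigen in a temperature-sensitive form, a protein that keeps the cells dividing and loses its activity at the nonpermissive temperature of 39 °C. All groups carry this transgene, and a Sertoli cell without it was not analysed here. The groups were cells after 0 h, 6 h, 12 h and 24 h at that temperature, with 2 samples at each time on 8 arrays. Every later time differs from 0 h in temperature, in time and in T-antigen activity together, and these cannot be told apart. The labels do not say whether the 2 samples of a time were separate cultures, so the spread behind the p-values is that of these samples alone and may be technical. In such bulk RNA, fewer cells of a kind and less RNA per cell cannot be told apart either.

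Sertoli cells line the seminiferous tubule and support the germ cells within it. In the fetal gonad, Nr5a1 (steroidogenic factor 1), Wt1 (a zinc finger factor also needed for the gonadal ridge) and Gata4 act upstream of Sox9, the factor that sets the Sertoli fate, while Nr0b1 (Dax1) is a nuclear receptor without a classical DNA-binding domain that represses Nr5a1. Dmrt1 keeps Sertoli cells from turning toward granulosa cells after birth, and Gata1 is a GATA factor of the postnatal Sertoli cell. Fshr is the receptor through which follicle-stimulating hormone raises cyclic AMP. 

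Of the 9 genes, 5 had at least 1 probe set above the limit used here for near background, and 4 had none. Signals are the deposited intensities, in units scaled to a common array mean. No detection calls were used, so a probe set was called near background when its mean log2 signal over the 8 arrays lay under the 40th percentile of all probe sets, equal to a signal of 74.1 units. By that rule 6 of the 13 probe sets were near background: 1 of the 2 for Sox9, 1 of the 2 for Nr5a1, and the single probe sets of Gata1, Dmrt1, Nr0b1 and Fshr. The other 7 were tested, and they belong to Sox9, Wt1, Gata4 (2), Gata6 (2) and Nr5a1. As a yardstick, the 38 probe sets of 27 germ cell, blood and endothelial marker genes had a median signal of 25.9 units with quartiles of 15.0 and 61.6 units, and 33 of them lay under the same level. Of the tested probe sets, those of Sox9 and Wt1 lay nearest the limit, at percentiles 50.6 and 48.4. Of the 38 marker probe sets, 2 were brighter than the Sox9 one and 3 than the Wt1 one.

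**Figure D1:**
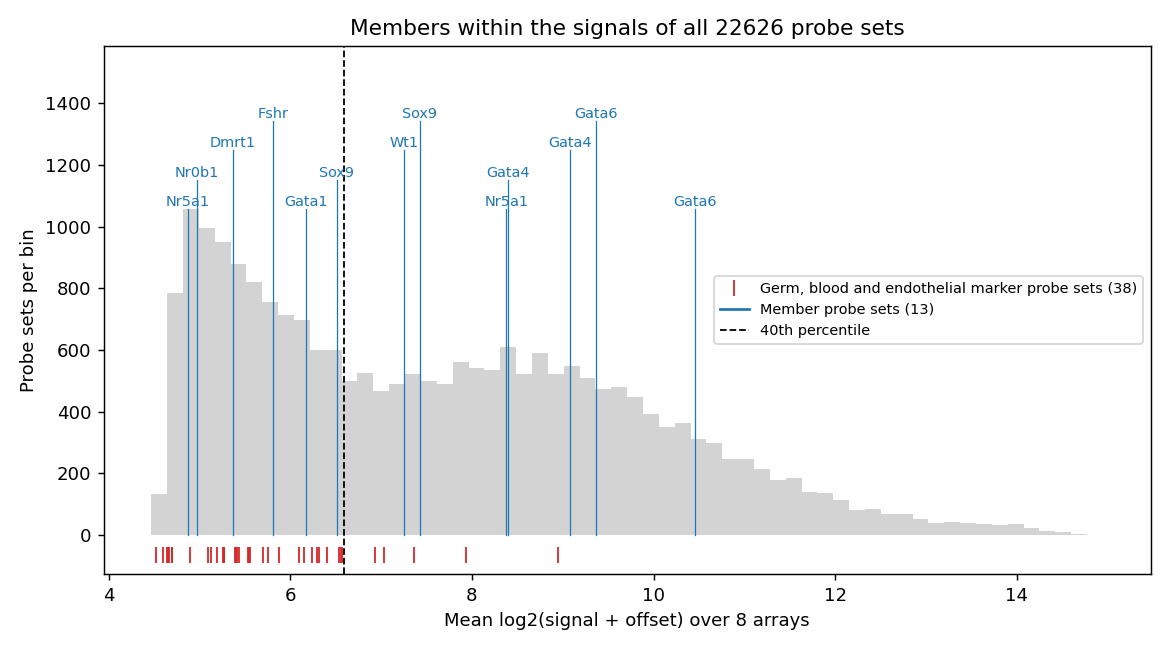
Histogram of the mean log2(signal + offset) over 8 arrays for all 22626 probe sets (x axis, log2 units; y axis, probe sets per bin), with the 13 probe sets of the 9 genes as blue lines and the 38 germ, blood and endothelial marker probe sets as red ticks. The 6 blue lines left of the dashed 40th percentile are near background, and the 7 to its right were tested.

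**Figure D2:**
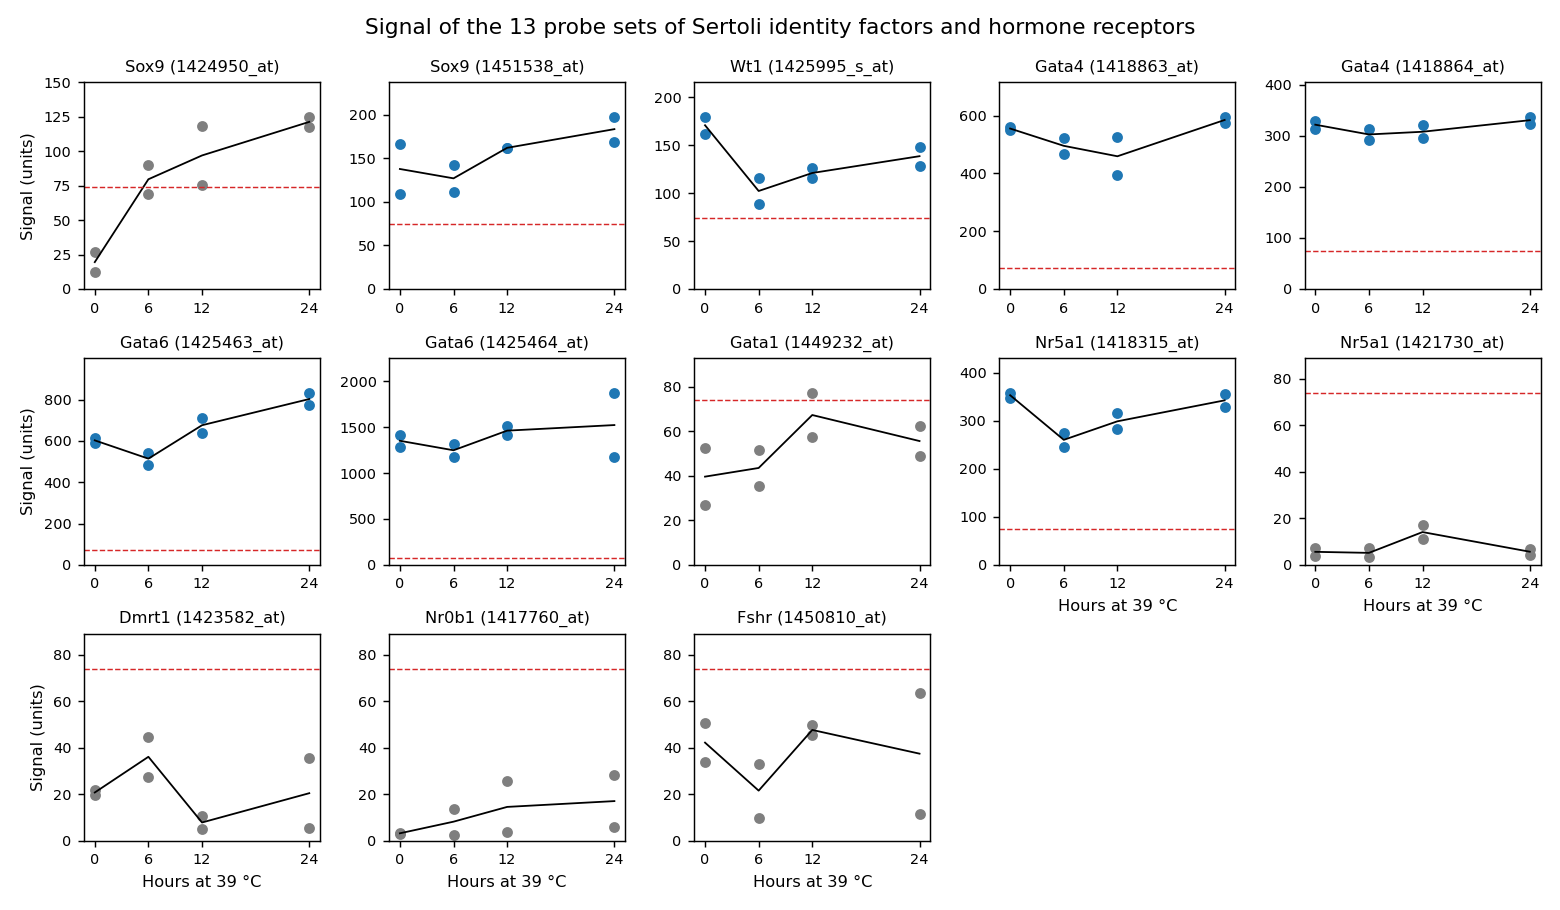
Signal in units (y axis, linear, a scale of its own in each panel) against hours at 39 °C (x axis) for each of the 13 probe sets. Points are single arrays (blue where tested, grey where near background), the line joins the means of the 2 arrays, and the dashed line is 74.1 units. The 0 h points of Sox9 probe set 1424950_at, at 26.5 and 12.5 units, lie under all its later points.

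Sox9 was read by 2 probe sets that behaved differently, although the annotation gives both the same transcript record. The brighter one, 1451538_at, gave 108.8 and 166.7 units at 0 h, 142.3 and 111.7 at 6 h, 162.3 and 161.8 at 12 h, and 197.7 and 169.3 at 24 h. Both 24 h arrays were above both 0 h arrays, but only narrowly, and the 0 h arrays were themselves far apart. The log2 difference at 24 h was 0.38 ± 0.22 (SE; 95% interval -0.09 to 0.86), which did not pass (limma adjusted p = 0.202), so an unchanged level and a rise of up to 0.86 are both within the interval. At 6 h the difference was -0.08 ± 0.22 (adjusted p = 0.827) and at 12 h it was 0.23 (adjusted p = 0.48).

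The dimmer Sox9 probe set, 1424950_at, lay at percentile 38.9 of all probe sets, just under the limit, and its signals moved more. It read 26.5 and 12.5 units at 0 h, 90.1 and 69.3 at 6 h, 118.5 and 75.5 at 12 h, and 117.7 and 125.1 at 24 h. Every later array was above both 0 h arrays. It was left out of the main test as near background. When all 22626 probe sets were tested without a limit on low signals, its log2 difference was 1.31 ± 0.30 at 6 h (adjusted p = 0.0334), 1.52 ± 0.30 at 12 h (adjusted p = 0.013) and 1.81 ± 0.30 at 24 h (adjusted p = 0.00364). These differences are taken against 0 h signals of the dim range, 1 of them under the offset of 22 units, so they are no measured fold. Of the 38 germ, blood and endothelial marker probe sets, 5 were brighter on average, and no test of the difference between the 2 Sox9 probe sets was made.

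Wt1 dipped early. Its probe set 1425995_s_at read 162.1 and 179.8 units at 0 h, 88.7 and 115.9 at 6 h, 116.0 and 126.2 at 12 h, and 128.8 and 148.5 at 24 h. Every later array was below both 0 h arrays, with the 6 h arrays lowest on average and the 24 h arrays between those of 6 h and 0 h. The steps from 6 h to 12 h (limma adjusted p = 0.558) and from 12 h to 24 h (adjusted p = 0.68) did not pass. Nor did the F-test over the 4 times (adjusted p = 0.0891). Wt1 fell at 6 h by 0.64 ± 0.20 on the log2 scale, 1.56-fold (95% interval of the log2 difference -1.08 to -0.21, adjusted p = 0.0446). That was 1 of the 7 tested probe sets lower at 6 h, where 9.33% of all 13576 tested probe sets were called lower and 18.0% in either direction. At 12 h the difference was -0.43 (interval -0.86 to 0.00, adjusted p = 0.138) and at 24 h -0.27 (interval -0.70 to 0.17, adjusted p = 0.34), and neither passed.

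The 6 h call for Wt1 stood near the threshold. Over 17 alternative settings the log2 difference stayed between -0.80 and -0.45, and it was called in 10 of them. Leaving out 1 array at a time gave an adjusted p of 0.141 (0 h replicate 1), 0.214 (0 h replicate 2), 0.186 (6 h replicate 1), 0.067 (24 h replicate 1) or 0.0692 (24 h replicate 2). It was 0.115 with no limit on low signals and 0.072 with only the 0 h and 6 h arrays.

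Gata4, the zinc finger factor that works with Nr5a1 and Wt1 on Sertoli promoters, was well above background and close to level. Probe set 1418864_at read 313.8 and 329.6 units at 0 h, 313.0 and 292.2 at 6 h, 320.3 and 295.4 at 12 h, and 323.8 and 337.2 at 24 h. The 8 arrays spanned a narrow range. Both 6 h arrays were under both 0 h arrays, and both 24 h arrays were above those of 6 h and 12 h. The log2 difference at 24 h was 0.04 ± 0.13 (95% interval -0.25 to 0.32, adjusted p = 0.861), and at 6 h and 12 h it was -0.08 (adjusted p = 0.706) and -0.06 (adjusted p = 0.781).

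The brighter Gata4 probe set, 1418863_at, read 551.8 and 559.7 units at 0 h, 524.3 and 467.4 at 6 h, 526.1 and 393.2 at 12 h, and 596.5 and 574.4 at 24 h. Both 24 h arrays were the highest and the 6 h and 12 h arrays were all under 0 h. None of the differences passed: -0.16 ± 0.14 at 6 h (adjusted p = 0.476), -0.28 ± 0.14 at 12 h (95% interval -0.59 to 0.04, adjusted p = 0.184) and 0.07 ± 0.14 at 24 h (interval -0.24 to 0.38, adjusted p = 0.74). The 12 h value rested on 1 low array, since without 12 h replicate 1 the difference was -0.48 (adjusted p = 0.0486) and without 12 h replicate 2 it was -0.08. The 24 h differences of both Gata4 probe sets, 0.07 and 0.04, had intervals that hold a fall as well as a rise.

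Gata6, a GATA factor of Sertoli and Leydig cells, was called over the 4 times by the dimmer of its 2 probe sets only. The brighter one, 1425464_at, did not pass (moderated F-test, adjusted p = 0.575). Probe set 1425463_at read 591.7 and 612.9 units at 0 h, 484.3 and 543.3 at 6 h, 640.2 and 710.9 at 12 h, and 833.1 and 771.5 at 24 h. The 4 times did not overlap: the 6 h arrays were lowest, then 0 h, then 12 h, and the 24 h arrays were highest. Its adjusted p for any change across the 4 times was 0.00783 (moderated F-test), and it was the 1 of 7 tested probe sets that was called, where 40.1% of all tested probe sets were called. Without 24 h replicate 1 this adjusted p was 0.0546.

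Of the 2 Gata6 probe sets, only the dimmer 1425463_at was called higher at 24 h. It rose by 0.40 ± 0.12 on the log2 scale, 1.32-fold (95% interval 0.15 to 0.66, limma adjusted p = 0.0214). Of all tested probe sets, 17.1% were called higher at 24 h and 32.9% in either direction. At 6 h the difference of 1425463_at was -0.22 ± 0.12 (interval -0.48 to 0.03, adjusted p = 0.212) and at 12 h 0.16 ± 0.12 (adjusted p = 0.353). The step from 6 h to 12 h was 0.38 ± 0.12 (adjusted p = 0.0678) and became a call without 6 h replicate 2 (0.46, adjusted p = 0.0441). The call at 24 h held in 13 of 18 alternatives, with the log2 difference between 0.30 and 0.45. Leaving out 1 array at a time gave an adjusted p of 0.122 (0 h replicate 1), 0.0821 (0 h replicate 2), 0.141 (24 h replicate 1) or 0.0631 (24 h replicate 2). With median-centred arrays the difference was 0.30 (adjusted p = 0.0752).

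The second Gata6 probe set, 1425464_at, was brighter and noisier. It read 1285.2 and 1419.5 units at 0 h, 1320.0 and 1177.9 at 6 h, 1410.1 and 1515.8 at 12 h, and 1877.0 and 1170.7 at 24 h. The 24 h arrays were the highest and the lowest of all 8, so this probe set fixes no direction at 24 h. The log2 difference there was 0.13 ± 0.18 (95% interval -0.25 to 0.52, adjusted p = 0.607). It was -0.20 without 24 h replicate 1 and 0.47 without 24 h replicate 2, where it became a call (adjusted p = 0.0396) and the F-test did too (adjusted p = 0.0456).

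Over the 8 arrays, the tested and changing probe sets of other genes whose log2 signals followed Gata6 probe set 1425463_at most closely were those of Mxi1 (Pearson r = 0.990), Ampd3 (r = 0.988) and Gfpt1 (r = 0.980). These are the highest of 5027 compared, 222 of which had r over 0.9, so such likeness was common among 8 arrays at 4 shared times. Mxi1, a MYC antagonist of the MAX network, had means of 230.0, 181.2, 262.4 and 320.8 units at 0, 6, 12 and 24 h. Ampd3, an AMP deaminase, had means of 283.8, 228.6, 381.2 and 510.2 units in the same order. Both were lowest at 6 h and highest at 24 h, as Gata6 probe set 1425463_at was. They were picked for their likeness to that probe set, so the shared course follows from the choice.

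Nr5a1, the nuclear receptor that switches on steroidogenic and Sertoli genes including Amh, read lower at 6 h, but the difference did not pass. The moderated F-test over the 4 times did not pass either (adjusted p = 0.083). Probe set 1418315_at read 347.5 and 358.2 units at 0 h, 245.9 and 274.2 at 6 h, 315.2 and 282.0 at 12 h, and 355.5 and 328.9 at 24 h. The 6 h arrays were the lowest of the 8, the 12 h arrays lay between, and the 24 h arrays overlapped with 0 h. The log2 difference at 6 h was -0.41 ± 0.14 (95% interval -0.71 to -0.11, adjusted p = 0.057), against -0.23 at 12 h (adjusted p = 0.251) and -0.04 at 24 h (interval -0.34 to 0.25, adjusted p = 0.845). It was called at 6 h in 2 of 18 alternatives, without 6 h replicate 2 (-0.48) and with a stricter limit on low signals (limma adjusted p = 0.0483). With no limit on low signals the adjusted p at 6 h was 0.102. The other Nr5a1 probe set, 1421730_at, read between 3.2 and 17.2 units on all 8 arrays, at percentile 5.45, so it gave no usable level.

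**Figure D3:**
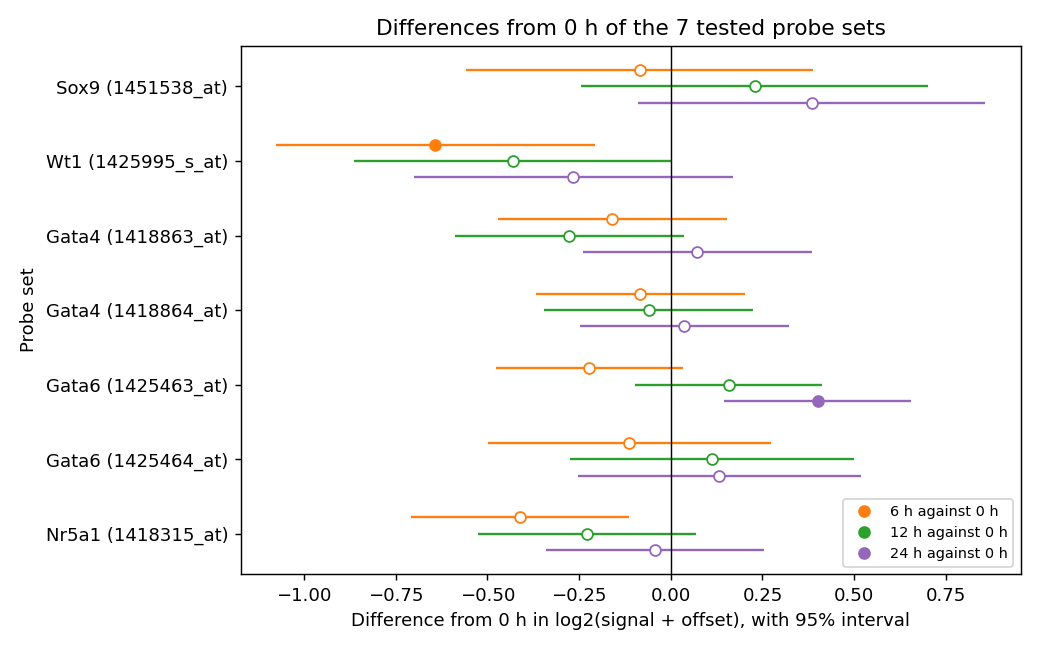
Differences from 0 h in log2(signal + offset) (x axis, log2 units) with 95% intervals for the 7 tested probe sets (rows), at 6 h, 12 h and 24 h. Filled points passed at an adjusted p below 0.05: Wt1 at 6 h, at -0.64, and Gata6 probe set 1425463_at at 24 h, at 0.40. All 7 points at 6 h lie left of 0.

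At 6 h all 7 tested probe sets read lower than at 0 h, with a median log2 difference of -0.16, while the median over all 13576 tested probe sets was 0.00 and 49.7% of them were lower. The direction was the same for all 7 after quantile normalization and after median centring of the arrays. It did not hold for all 7 when single arrays were left out. Sox9 1451538_at was then higher at 6 h, by 0.18 without 0 h replicate 2 and by 0.06 without 6 h replicate 2. Only Wt1 was called, 2 had an unadjusted p below 0.05 (Wt1 and Nr5a1), and the 7 belong to 5 genes and share the same 4 arrays, so they are not separate observations.

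At 12 h the 7 split, with 4 lower and 3 higher and a median of -0.06. None was called with limma, none had an unadjusted p below 0.05, and 24.0% of all tested probe sets were called. At 24 h 5 were higher and 2 lower, with a median of 0.07 beside 0.02 over all tested probe sets. That split depended on the scaling, since 3 were lower after quantile normalization and 4 after median centring. The medians of the 24 h arrays stood 0.09 and 0.12 log2 units above the mean of the 0 h medians.

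Between neighbouring later times no member was called with limma. From 6 h to 12 h 6 of the 7 were higher (5 with median centring), 1 had an unadjusted p below 0.05 (Gata6), and 8.32% of all tested probe sets were called. From 12 h to 24 h all 7 were higher (6 with median centring), with a median of 0.17. There, 1 had an unadjusted p below 0.05, Gata4 probe set 1418863_at at 0.35 (adjusted p = 0.173), and 6.88% of all tested probe sets were called.

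The remaining members stayed in the dim range at every time. Gata1 came nearest to the limit, at percentile 33.7: 52.4 and 26.9 units at 0 h, 35.4 and 51.7 at 6 h, 77.4 and 57.3 at 12 h, and 49.1 and 62.2 at 24 h. Of its 8 arrays 7 were under 74.1 units, both 12 h arrays were above those of 0 h and 6 h, and 12 of the 38 germ, blood and endothelial marker probe sets were brighter. Gata1 is best known from red blood cells, and the Sertoli transcript starts from a promoter of its own.

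Dmrt1 read 21.8 and 19.7 units at 0 h, 27.5 and 44.7 at 6 h, 4.9 and 10.8 at 12 h, and 5.4 and 35.5 at 24 h, with 5 of 8 arrays under the 22 units that were used as offset. Nr0b1 read 3.1 and 3.3 units at 0 h, 13.8 and 2.6 at 6 h, 3.6 and 25.5 at 12 h, and 28.4 and 5.7 at 24 h, with 6 of 8 arrays under the offset. For Dmrt1 the 6 h arrays were the highest on average and the 12 h arrays low, while the 24 h arrays were far apart. For Nr0b1 the arrays of each later time were far apart. Signals this dim give no course over time.

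Fshr read 33.8 and 50.6 units at 0 h, 33.2 and 9.9 at 6 h, 49.8 and 45.5 at 12 h, and 11.4 and 63.5 at 24 h. It lay at percentile 27.2, and 15 of the 38 germ, blood and endothelial marker probe sets were brighter. The 24 h arrays were the highest and nearly the lowest of the 8, and an absence of the transcript cannot be read from a dim probe set. With no limit on low signals, limma called none of the probe sets of Gata1, Dmrt1, Nr0b1 and Fshr at any time, nor the dim one of Nr5a1.

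Promoter sequences from RefSeq, build GRCm38.p6, were at hand for 3 of the 9 genes: Fshr, Nr0b1 and Gata1. The 250 bases before the gene start are shown for Fshr and Nr0b1, the hormone receptor and the repressor whose probe sets stayed dim, on the strand of the gene, with a motif in capitals. In Fshr these bases lie at chr17:89200676-89200925 on the minus strand, and the capitals mark an E-box (CACGTG, its own reverse complement), the kind of site that the factors Usf1 and Usf2 bind. In Nr0b1 they lie at chrX:86191525-86191774 on the plus strand, and the capitals mark the letters AGGTCA, the core of the kind of site that Nr5a1 binds.
Fshr: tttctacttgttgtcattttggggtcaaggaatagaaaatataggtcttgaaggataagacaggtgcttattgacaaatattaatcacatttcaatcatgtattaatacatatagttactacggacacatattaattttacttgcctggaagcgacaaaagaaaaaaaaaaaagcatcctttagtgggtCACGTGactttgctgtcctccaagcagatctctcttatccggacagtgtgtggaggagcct
Nr0b1: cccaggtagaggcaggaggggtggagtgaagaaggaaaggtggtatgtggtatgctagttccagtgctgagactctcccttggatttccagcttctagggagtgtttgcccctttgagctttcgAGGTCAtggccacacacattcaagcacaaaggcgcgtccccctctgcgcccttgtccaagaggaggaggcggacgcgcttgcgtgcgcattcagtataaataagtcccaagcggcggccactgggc
The E-box starts 61 bases before the Fshr gene start, and 6.02% of 32851 promoter windows of this length hold CACGTG. The receptor site core starts 126 bases before the Nr0b1 gene start, and 14.0% of windows hold AGGTCA or its reverse complement TGACCT. The Gata1 window held neither of these motifs on either strand. It also lacked the GATA motif AGATAA, which 9.99% of windows hold on 1 strand or the other, and its variant TGATAA, which 7.94% hold. A match of letters is a description of the sequence, and binding was not measured here. Usf1 and Usf2 were themselves above background, with means of 260.1 and 250.3 units, and neither was called at a later time.

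The relatives of the members within their families gave 29 measured genes of 36 listed, each taken by its brightest probe set, of which 9 were tested and 20 were near background. At 24 h 2 of the 9 rose, none fell and 7 did not pass, where 18.6% of 7707 tested genes were called higher and 16.6% lower. At 12 h 1 rose and none fell, beside 13.3% of all genes higher and 12.0% lower. At 6 h none was called with limma (1 lower at an unadjusted p below 0.05), beside 9.15% higher and 9.33% lower. Nr0b2 (SHP), the other nuclear receptor of the Nr0b1 kind, read 295.6 and 265.9 units at 0 h, 333.6 and 296.5 at 6 h, 591.2 and 652.2 at 12 h, and 546.5 and 479.2 at 24 h. Its 12 h and 24 h arrays were all above every earlier array. It rose by 1.09 ± 0.13 on the log2 scale at 12 h (2.13-fold, adjusted p = 0.000262) and by 0.82 ± 0.13 at 24 h (1.77-fold, adjusted p = 0.000815), and was called at both times in all 18 alternatives.

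Sox4, a SOX factor of the early gonad, rose at 24 h by 0.57 ± 0.09 on the log2 scale (1.49-fold, adjusted p = 0.000721) by its brightest probe set, and its 6 probe sets ran from 0.11 to 0.90. Egr1, an immediate early zinc finger factor with DNA-binding fingers like those of Wt1, differed at 24 h by 0.34 ± 0.13 and did not pass (adjusted p = 0.0702). Sox1, Sox2 and Sox3 and also Gata3 and Nr5a2 were among those near background.

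Of the genes of the gonadal ridge and of testis determination, 30 of 34 were measured and 19 tested. At 6 h 2 rose and 3 fell, at 12 h 1 rose and 1 fell, and at 24 h 5 rose, 2 fell and 12 did not pass. The median log2 difference at 24 h was 0.22, beside 0.02 over all genes. The count of 5 and the median include Vnn1, which passed the limit on low signals only through the later times where it is high. Over all 7707 genes 9.15% were called higher and 9.33% lower at 6 h. The shares were 13.3% and 12.0% at 12 h, and 18.6% and 16.6% at 24 h. At 24 h 1 fell without 0 h replicate 1 and 1 without 24 h replicate 2. Zfpm1 (FOG1), a zinc finger cofactor that binds GATA factors, read 372.5 and 435.5 units at 0 h, 811.2 and 684.7 at 6 h, 746.7 and 740.2 at 12 h, and 750.8 and 740.1 at 24 h. All 6 later arrays stood well above both 0 h arrays and close to each other. It rose by 0.85 ± 0.12 at 6 h (1.81-fold, adjusted p = 0.00117) and was as high at 24 h (0.85, adjusted p = 0.000389). Its second probe set gave 0.51 at 6 h (adjusted p = 0.111) and 0.70 at 24 h (adjusted p = 0.0233). Zfpm2 (FOG2), the cofactor with which Gata4 acts in the gonad, fell at 6 h by 0.49 ± 0.15 (adjusted p = 0.0477), a call kept in 7 of 18 alternatives. It ended when any array other than 6 h replicate 2 was left out, with an adjusted p of 0.0536 to 0.292, the highest without 0 h replicate 2. Its other probe set gave -0.02 at 6 h (adjusted p = 0.966).

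Other genes of the list for the gonadal ridge and testis determination took different courses. Gadd45g, which acts upstream of Sry through a kinase cascade, rose at 6 h by 0.53 ± 0.12 (adjusted p = 0.0141) and fell at 24 h by 1.31 ± 0.12 (2.48-fold, adjusted p = 2.28e-05). The 6 h call ended without 0 h replicate 1 (adjusted p = 0.0975) and without 0 h replicate 2 (adjusted p = 0.0845). Pawr, a pro-apoptotic protein that binds WT1, fell at 6 h by 0.71 ± 0.12 (adjusted p = 0.00238) and rose at 24 h by 0.58 ± 0.12 (adjusted p = 0.00306). Vnn1, a pantetheinase of the early testis, read 41.3 and 70.3 units at 0 h and 204.3 and 222.0 at 24 h and was called higher (adjusted p = 0.000818). Its 0 h and 6 h means were under the limit on low signals, so it was tested only through the later times where it is high, and no fold is given. Sry, the switch gene itself, was near background, with a mean of 59.6 units, and so was Amh, the hormone that removes the Müllerian ducts, which read between 3.5 and 13.8 units on the 8 arrays.

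Of genes of the ovarian and granulosa pathway, which opposes the testis pathway in the fetal gonad, 12 of 15 were measured and 7 tested. At 6 h 2 rose and 5 did not pass, and at 12 h and at 24 h 3 rose and 4 did not pass, with none called lower. Over all genes 9.15% were called higher at 6 h, 13.3% at 12 h and 18.6% at 24 h. Called lower were 9.33%, 12.0% and 16.6% in the same order. At 24 h 1 rose without 0 h replicate 1 and 1 without 24 h replicate 2. The median log2 difference at 24 h was 0.39, beside 0.02 over all genes. These counts and this median include Fst, which passed the limit on low signals only through the times where it is high. Wnt4, the signal that favours the ovarian fate, read 371.8 and 351.3 units at 0 h, 770.7 and 619.9 at 6 h, 844.9 and 680.6 at 12 h, and 724.3 and 802.9 at 24 h. All later arrays were above both 0 h arrays, and the later times overlapped with each other. It rose by 0.90 ± 0.14 at 6 h (1.86-fold, adjusted p = 0.00194) and by 1.03 ± 0.14 at 24 h (2.05-fold, adjusted p = 0.000281), and was called at every later time in all 18 alternatives.

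Fst (follistatin, which binds activins) read 48.7 and 50.4 units at 0 h, 101.8 and 108.9 at 6 h, and 116.0 and 96.1 at 24 h, and was called higher at 6 h (adjusted p = 0.0295) and at 24 h (adjusted p = 0.017). Its 0 h mean was under the limit on low signals, so it was tested only through the times where it is high, and no fold is given. The 24 h call ended without 0 h replicate 1 (adjusted p = 0.081), 0 h replicate 2 (0.0662), 24 h replicate 1 (0.121) or 24 h replicate 2 (0.0505). The 6 h call ended without 0 h replicate 1 (adjusted p = 0.134), 0 h replicate 2 (0.113), 6 h replicate 1 (0.0752) or 6 h replicate 2 (0.08). Ctnnb1 (beta-catenin) rose at 24 h by 0.42 ± 0.09 (adjusted p = 0.00577), a call that ended without 0 h replicate 1 (adjusted p = 0.082) or 24 h replicate 2 (0.0552). Runx1 had probe sets that disagreed at 24 h, with 0.39 ± 0.17 for the brightest (adjusted p = 0.104) and -0.75 for another (adjusted p = 0.0205).

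Downstream of Fshr, 33 of 47 genes of G-protein and cyclic AMP signalling were measured and 24 tested. The receptor was near background, while 24 of the 33 measured genes were above it, and they went both ways: 2 rose and 2 fell at 6 h, 3 rose and 3 fell at 12 h, and 3 rose, 3 fell and 18 did not pass at 24 h. The shares over all genes were 9.15% higher and 9.33% lower at 6 h, and 13.3% and 12.0% at 12 h. At 24 h they were 18.6% higher and 16.6% lower. With median centring 3 rose and 5 fell at 24 h. Adcy6, an adenylate cyclase, read 296.1 and 318.8 units at 0 h, 573.4 and 570.0 at 6 h, 480.3 and 552.3 at 12 h, and 623.6 and 671.1 at 24 h. All its later arrays were above both 0 h arrays, with those at 24 h highest. It rose by 0.85 ± 0.12 at 6 h (adjusted p = 0.00106) and by 1.02 ± 0.12 at 24 h (2.03-fold, adjusted p = 0.000101). Prkar1a, a regulatory subunit of protein kinase A, rose at 24 h by 0.54 ± 0.12 (adjusted p = 0.00483), and Pde4b, a cyclic AMP phosphodiesterase, by 0.61 ± 0.16 (adjusted p = 0.0122). The call for Prkar1a ended without 0 h replicate 2 (adjusted p = 0.0564), and that for Pde4b without 0 h replicate 1 (0.0819) or 24 h replicate 1 (0.124). Gnas, the stimulatory G-protein subunit, differed by 0.13 at 24 h (adjusted p = 0.422).

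The other 3 called genes of this group fell at 24 h. Akap12, an anchor protein of protein kinase A, read 676.3 and 694.3 units at 0 h, 907.8 and 950.9 at 6 h, 382.7 and 395.6 at 12 h, and 264.9 and 298.8 at 24 h. The 4 times did not overlap, with the peak at 6 h and the lowest signals at 24 h. It rose at 6 h by 0.43 ± 0.12 (adjusted p = 0.0262) and fell at 24 h by 1.22 ± 0.12 (2.33-fold, adjusted p = 2.29e-05). The 6 h call ended without 0 h replicate 1 (adjusted p = 0.155), 0 h replicate 2 (0.119) or 6 h replicate 2 (0.0627). Pde8a, another cyclic AMP phosphodiesterase, fell at 12 h by 0.91 ± 0.12 (1.87-fold, adjusted p = 0.000464) and at 24 h by 0.54 ± 0.12 (adjusted p = 0.00598). The 24 h call ended without 24 h replicate 1 (-0.50). Its other probe set fell by 0.86 at 12 h (adjusted p = 0.0231) and by more at 6 h (adjusted p = 0.00184). At 24 h that probe set gave -0.46 and did not pass (adjusted p = 0.162). Grk6, a kinase that desensitises G-protein-coupled receptors, fell at 24 h by 0.78 ± 0.17 (adjusted p = 0.00525), a call that ended without 0 h replicate 1 (adjusted p = 0.059) or 24 h replicate 2 (0.0575). The other Grk6 probe set gave -0.56 at 24 h (adjusted p = 0.0661).

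Other hormone and nuclear receptors gave 38 measured genes of 44, of which 19 were tested and 19 were near background, Esr1, Esr2 and Pgr among the latter. At 6 h 2 rose and 1 fell, at 12 h 1 rose and 2 fell, and at 24 h 5 rose, none fell with limma (none lower at an unadjusted p below 0.05 either) and 14 did not pass. Over all genes 9.15% were called higher and 9.33% lower at 6 h. The shares were 13.3% and 12.0% at 12 h, and 18.6% and 16.6% at 24 h. With median centring 3 rose at 24 h. Leaving out replicate 1 of 0 h or of 24 h left 1, and leaving out replicate 2 of 0 h or of 24 h left 0. Nr3c1, the glucocorticoid receptor, rose at 6 h by 0.75 ± 0.16 (1.68-fold, adjusted p = 0.0102), a call that ended without 0 h replicate 2 (adjusted p = 0.0943). Its other 2 probe sets gave 0.37 and 0.30 at 6 h and did not pass.

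Thra, the thyroid hormone receptor alpha that ties thyroid hormone to Sertoli maturation, rose at 12 h by 0.53 ± 0.12 (adjusted p = 0.0107) and at 24 h by 0.46 ± 0.12 (adjusted p = 0.0144) by its brightest probe set. Its other probe set gave -0.01 at 12 h (adjusted p = 0.986) and 0.10 at 24 h (adjusted p = 0.8). Its 24 h call ended without 0 h replicate 1 (adjusted p = 0.0803), 0 h replicate 2 (0.0741), 24 h replicate 1 (0.0852) or 24 h replicate 2 (0.0675). Its 12 h call ended without 0 h replicate 1 (adjusted p = 0.0705), 0 h replicate 2 (0.0661) or 12 h replicate 2 (0.0759). Nr1d1 (Rev-erb alpha, a clock repressor) fell at 6 h by 0.99 ± 0.24 (adjusted p = 0.0157), and the call ended without 0 h replicate 1 (adjusted p = 0.0594), 0 h replicate 2 (0.127) or 6 h replicate 1 (0.0801). Nr1d2, its close relative, rose at 24 h by 0.70 ± 0.23 (adjusted p = 0.0399), and was called in 11 of 18 alternatives. That call ended without 0 h replicate 1 (adjusted p = 0.113), 0 h replicate 2 (0.169), 24 h replicate 1 (0.082) or 24 h replicate 2 (0.199), and with median centring (0.0634). Its other probe set gave 0.62 at 24 h (adjusted p = 0.139).

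Of 24 genes known as targets of the member factors, 22 were measured and 10 tested. At 6 h 2 rose, beside 9.15% of all genes higher and 9.33% lower. At 12 h 3 rose and 1 fell, beside 13.3% higher and 12.0% lower. At 24 h 5 rose, 1 fell and 4 did not pass, beside 18.6% of all genes higher and 16.6% lower. At 24 h 3 rose without 0 h replicate 1, without 24 h replicate 1 or without 24 h replicate 2, and none fell without either 0 h array or either 24 h array. Egfr, the growth factor receptor gene that WT1 represses in other cells, read 364.9 and 324.4 units at 0 h, 354.7 and 270.8 at 6 h, 574.5 and 568.1 at 12 h, and 977.8 and 983.2 at 24 h. The 0 h and 6 h arrays overlapped, and the 12 h and 24 h arrays were each higher than all before. It rose at 24 h by 1.45 ± 0.14 (2.74-fold, adjusted p = 2.37e-05), while its 5 probe sets ran from -0.31 to 1.45. Pdgfa, another gene reported to be repressed by WT1, rose at 6 h by 1.21 ± 0.19 (2.31-fold, adjusted p = 0.00162) and was 0.84 ± 0.19 higher at 24 h (adjusted p = 0.00548). The 24 h call for Pdgfa ended without 0 h replicate 2 (adjusted p = 0.0524) or 24 h replicate 1 (0.0603).

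Star, the cholesterol carrier of steroid synthesis and a target of Nr5a1 and Gata4, rose at 24 h by 1.18 ± 0.24 (2.27-fold, adjusted p = 0.00327), from 74.6 and 134.5 units at 0 h to 229.9 and 287.2. Inhbb, the inhibin and activin beta B subunit, rose at 6 h by 0.66 ± 0.14 (adjusted p = 0.00979) and at 24 h by 0.51 ± 0.14 (adjusted p = 0.0188). The 6 h call ended without 0 h replicate 1 (adjusted p = 0.0978), and the 24 h call without 0 h replicate 1 (0.151), 24 h replicate 1 (0.0755) or 24 h replicate 2 (0.106). Its other probe set gave 0.85 at 6 h (adjusted p = 0.086) and 0.53 at 24 h (adjusted p = 0.23). Podxl, a podocyte surface protein that WT1 activates, differed at 6 h, where Wt1 was called lower, by 0.38 (limma adjusted p = 0.125). Egfr differed there by -0.14 (adjusted p = 0.524), while Pdgfa rose. The part of Wt1 in the values of Egfr, Pdgfa or Podxl was not tested. At 24 h Podxl fell by 0.49 ± 0.16 (adjusted p = 0.0336). That call ended without 0 h replicate 1 (adjusted p = 0.178), 0 h replicate 2 (0.0899), 24 h replicate 1 (0.189) or 24 h replicate 2 (0.0705).

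**Figure D4:**
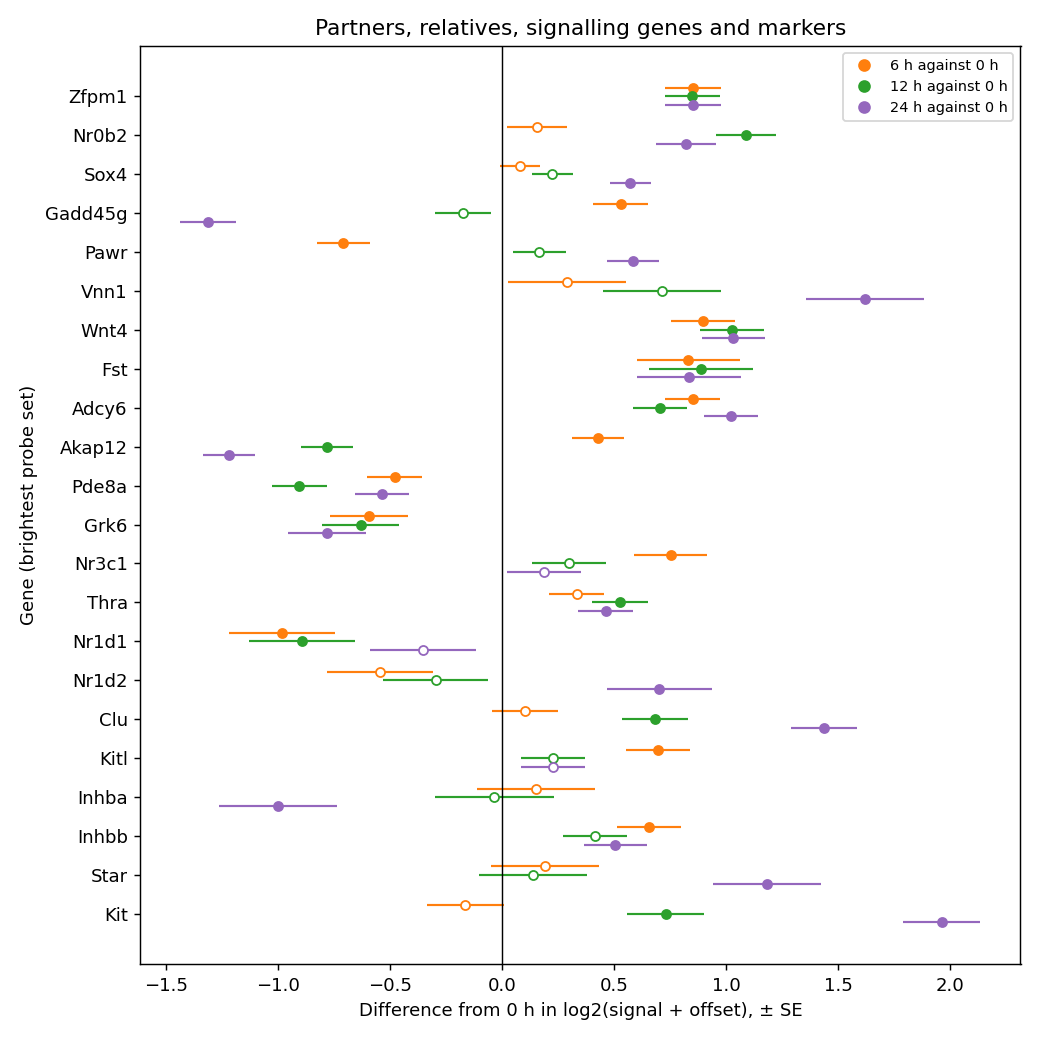
Differences from 0 h in log2(signal + offset) (x axis, log2 units; bars are ± 1 SE of the fit) for named relatives, partners, signalling genes, targets and markers (rows), each by its brightest probe set, at 6 h, 12 h and 24 h. Filled points passed at an adjusted p below 0.05. Zfpm1, Wnt4 and Adcy6 lie right of 0 at all 3 later times. The points of Fst and Vnn1 are taken against 0 h signals, and those of Inhba at 24 h from signals, under the limit on low signals. Kit at 24 h, at 1.96, lies farthest to the right.

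The Sertoli label was checked against 31 marker genes, of which 27 were measured, 11 tested and 16 near background. The tested ones include Sox9, Wt1, Gata4 and Nr5a1 and also Vim, an intermediate filament with a mean of 17617 units, and Krt18, a keratin with 2949 units. Near background were Fshr, Dmrt1, Gata1, Amh, Dhh, Gdnf (mean 10.6 units), Rhox5 and Cldn11. Transcripts of several Sertoli transcription factors were thus above the dim range, while Fshr, Amh and Dhh were within it. At 24 h 2 of the 11 rose, 1 fell and 8 did not pass (2 fell with quantile normalization and with median centring), beside 18.6% of all genes higher and 16.6% lower. Without 0 h replicate 1 or 24 h replicate 1, 1 rose and 0 fell. Without 24 h replicate 2, 1 rose, and without 6 h replicate 1 or 6 h replicate 2, 2 fell. Clu, a secreted chaperone of Sertoli cells, rose at 24 h by 1.44 ± 0.15 (limma adjusted p = 3.63e-05), and Inha differed by -0.20 (adjusted p = 0.536). Inhba, the activin beta A subunit, fell from 175.1 and 142.4 units at 0 h to 50.7 and 89.2 at 24 h (adjusted p = 0.0134). It is the 1 of the 11 that fell. Its 24 h mean was under the limit on low signals, so it was tested only through the earlier times where it is high, and no fold is given. The Inhba call ended without 0 h replicate 1 (adjusted p = 0.105) or 24 h replicate 1 (0.122). Kitl, the ligand of KIT, rose at 6 h by 0.70 ± 0.14 (adjusted p = 0.00757) by its brightest probe set, a call that ended without 0 h replicate 1 (adjusted p = 0.0764). Its other 3 probe sets gave 0.06, 0.20 and 0.23 at 6 h and did not pass.

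Markers of other cells were mostly dim. Of 13 measured germ cell markers 1 was tested, of 5 Leydig markers 1, of 7 peritubular myoid markers 3, of 8 macrophage and blood markers 2 and of 6 endothelial markers none. Summed over the brightest probe set of each gene, the germ list ran from 530 to 704 units at 0 h and from 1541 to 1565 at 24 h. Kit, the only germ list gene above background, read 252.7 and 348.8 units at 0 h and 1224.7 and 1222.3 at 24 h (1.96 ± 0.17 on the log2 scale, adjusted p = 1.35e-05), while Ddx4 and Dazl had means of 25.4 and 18.3 units. The Leydig sum ran from 117 to 208 units at 0 h and from 267 to 355 at 24 h, with Star as its only tested gene and Cyp11a1 at a mean of 7.34 units. The peritubular myoid sum was 535 to 605 units at 0 h and 508 to 624 at 24 h, and the macrophage and blood sum was 449 to 509 and 372 to 457. The part of any of these in the values of Gata6, Star or Sox9 was not tested.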

How the data were processed

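Total RNA of TTE3 cells was biotin-labelled and read on the Affymetrix 430A mouse array, per the labels' protocols. The authors deposited 1 linear intensity per probe set and array, between 0.1 and 38130.2 units. The software that made them is not given in the sources used here. With 2% trimmed from both ends, array means lay between 500.18 and 500.2, so each array had been scaled to a common mean, and a change in total mRNA per cell is not visible. Array medians ran from 138.5 to 154.7 units, and the small number of arrays limits the precision.

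Samples were grouped by the hours in their titles. After removal of 64 control probe sets, 22626 remained, of which 20380 had 1 gene symbol in the platform annotation, 691 several and 1555 none. Values were taken as log2(intensity + 22), the offset being the 20th percentile of all values, so that log2 differences and the folds made from them understate the change of dim genes. The 13576 probe sets with a mean log2 value at or above the 40th percentile (6.59) were fitted over all 8 arrays by lmFit and trended eBayes of limma 3.58.1 (R 4.3.3; 4 residual and 7.22 prior degrees of freedom). A moderated F-test covered the 4 times and moderated 2-sided contrasts covered the 5 comparisons. Benjamini-Hochberg adjustment ran over all tested probe sets, with calls below 0.05, and ± marks the fit's standard error. Likewise 7707 genes with 1 symbol were represented by their brightest probe set.

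The script was tested on simulated data. The members, the gene lists and the rule for named genes were chosen with earlier results of these data known, so no list count is independent support. The rule named every member probe set, per list up to 4 genes called in the F-test with the largest difference from 0 h, a fixed group of Sertoli markers, and the 3 probe sets most like a member called in the F-test. Zfpm2, Prkar1a, Pde4b, Gnas, Podxl, Usf1, Usf2, Sry and the dim markers given by name were added after their values were seen. Alternatives were quantile normalization, median centring, other offsets and filters, no variance trend, only the times compared, a replicate block, and leaving out each sample. Promoter sequences came from a RefSeq table of build GRCm38.p6.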

Additional observations from a re-analysis of the deposited data

How the results depend on the processing

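Values are counts of called probe sets (limma, adjusted p below 0.05) unless named otherwise. Among the members, the F-test called 2 with no limit on low signals and 2 with no variance trend, beside 1. Over all probe sets these settings called 4348 of 22626 and 4577 of 13576, beside 5447. At 6 h the member count was 0 with only the times compared, where 1874 of 13576 were called. With no limit it was 1 at 12 h (beside 0) and 2 at 24 h (beside 1), where 2552 and 3804 of 22626 were called. With median centring it was 0 at 24 h, where 4587 of 13576 were called. The member added with no limit was Sox9 1424950_at each time. At 6 h that probe set was called higher with no limit, while Wt1 no longer passed. With the limit at the 20th percentile 3 were near background, and at the 60th percentile 8, beside 6. The 8 include both Sox9 probe sets and that of Wt1. Over all probe sets, the step from 6 to 12 h called 1130, and 644 with no limit, 607 with no variance trend and 240 with only those times; that from 12 to 24 h called 934, and 529 with no limit and 369 with no variance trend.

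Leaving out each sample in turn gave, for members and all probe sets, 0 to 2 and 3301 to 6604 in the F-test, 0 to 2 and 835 to 2998 at 6 h, 0 to 1 and 1518 to 4147 at 12 h, 0 to 1 and 2598 to 5200 at 24 h, 0 to 1 and 323 to 1547 from 6 to 12 h, and 0 and 84 to 1650 from 12 to 24 h. Without either 0 h array the members include Sox9 1424950_at, which then passed the limit only through the later times where it is high.

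Differences that changed sign were uncalled, save Gata6 1425464_at at 24 h, called without 24 h replicate 2 (0.47). Gata4 1418864_at at 24 h was -0.039 with quantile normalization and -0.067 centred, and -0.013 centred from 6 to 12 h. Centring gave Gata4 1418863_at -0.031 at 24 h and Gata6 1425464_at -0.025 from 12 to 24 h. With samples left out, Sox9 1451538_at ran from -0.35 to 0.18 at 6 h (0.18 without 0 h replicate 2, 0.06 without 6 h replicate 2) and from -0.036 to 0.49 at 12 h. Gata6 1425464_at ran from -0.20 to 0.47 at 24 h and from -0.32 to 0.36 from 12 to 24 h. From 6 to 12 h Gata4 1418864_at ran from -0.032 to 0.077 and Gata4 1418863_at from -0.32 to 0.084, and Nr5a1 at 24 h from -0.095 to 0.010. The causes were not tested.

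The deviations of same-numbered samples had correlations from 0.05 to 0.18 between times, so the numbers were not taken as pairs. With the replicate number as a block, the F-test called 5982 probe sets beside 5447, 6 h called 2813 beside 2441, and the member counts were 1, 1, 0 and 1 in the F-test and at 6, 12 and 24 h, as without it. Signal over background limits 6 of the 13 probe sets.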
